A study of Mus musculus with 24 samples.

Results

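The microRNA content of extracellular vesicles (EVs) was compared with that of the cells that released them after treatment with interleukin-10 (IL-10), in BV2, a line of immortalised microglia from mouse. The samples were 3 libraries of IL-10 cells and 3 of IL-10 EVs, 6 of the 24 libraries of the series, chosen by their labels and joined by precursor name over the 1187 microRNA precursors of the deposited tables. IL-10 was given at 50 ng/mL for 72 h. The other cultures, which entered the common fit and set the IL-10 difference in context, were untreated controls, cultures given lipopolysaccharide (LPS, a component of bacterial walls that activates Toll-like receptor 4) at 100 ng/mL and cultures given transforming growth factor beta (TGF-β) at 50 ng/mL, each with 3 libraries of cells and 3 of EVs. All material came from 1 cell line, and the method of vesicle isolation is not given in the sources used here. Whether the libraries within a group stem from separate cultures is not stated in the labels, and the p-values therefore reflect only the variation among these samples, possibly technical.

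IL-10 is a cytokine that damps inflammatory activation of macrophages and microglia through its receptor and STAT3. A microRNA is cut from a hairpin precursor, loaded into an Argonaute protein and guides it to target messenger RNAs mainly through its seed, bases 2 to 8 of the mature strand. EVs carry microRNAs together with fragments of other cellular RNAs, such as ribosomal RNA, transfer RNA and Y RNA, and a fragment that shares bases with an annotated precursor can be counted under its name. Library counts give the composition of an RNA pool, so more RNA of 1 kind and less of the others cannot be told apart, nor can the amount of RNA per vesicle or per cell.

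The mature sequences below belong to the precursors on which the comparison turned. They are RefSeq sequences of build GRCm38.p6 (a mature entry was matched for 1015 of the 1187 precursors), written 5′ to 3′ with the seed in capitals. The deposited counts are per precursor, so which strand or fragment was read is not known. The first set was higher in IL-10 EVs than in IL-10 cells, and miR-692 stands for 3 precursor copies with the same mature strand.
miR-6236: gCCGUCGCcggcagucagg
miR-6240: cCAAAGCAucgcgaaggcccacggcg
miR-1896: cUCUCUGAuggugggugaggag
miR-692: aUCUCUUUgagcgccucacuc
miR-682: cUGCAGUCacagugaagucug
miR-6238: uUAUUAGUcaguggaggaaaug
miR-203-3p: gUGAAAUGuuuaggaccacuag
The second set was lower in the EVs, or, for let-7c-5p and let-7b-5p, belongs to the same family and was not called.
let-7a-5p: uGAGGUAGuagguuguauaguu
let-7f-5p: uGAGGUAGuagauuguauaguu
let-7e-5p: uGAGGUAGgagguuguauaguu
miR-98-5p: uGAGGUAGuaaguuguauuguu
let-7c-5p: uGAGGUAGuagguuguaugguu
let-7b-5p: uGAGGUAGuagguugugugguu
miR-677-5p: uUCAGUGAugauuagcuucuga
miR-5121: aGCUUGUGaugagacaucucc
miR-183-5p: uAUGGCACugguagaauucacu

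IL-10 cell libraries held 352120, 340140 and 349743 counts and IL-10 EV libraries 17724, 15402 and 15592, so that the median cell library was 22.4 times as deep. Between 406 and 420 precursors had a count in a cell library and 181 to 266 in an EV library. The largest share that a count of 0 allows (3 counts) was 0.000882% in the shallowest cell library and 0.0195% in the shallowest EV library. PCR copies were not separated from molecules, so these limits and the intervals below cover counting error only. Log2 CPM, with 1 added, was compared over precursors with a count in either library of a pair, at unmatched depth. Pearson's r was 0.938 to 0.946 between cell libraries and 0.0450 to 0.183 between EV libraries. Of the 382 precursors seen in EVs, 209 had counts in a single EV library, and these enter the EV values as 0 in the other library of a pair. EV library 1 stood apart from the other EV libraries: 32.5% of its counts came from precursors other than mir-6236 and mir-6240, against 11.8% in both of the others.

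IL-10 EVs were dominated by a single precursor name. mir-6236, on chromosome 9 (110281353 to 110281371, plus strand, outside other annotated genes), took 61.2%, 79.5% and 78.2% of the 3 EV libraries and 0.574%, 0.602% and 0.631% of the 3 cell libraries. The 95% Clopper-Pearson intervals of the EV shares were 60.5 to 61.9%, 78.9 to 80.2% and 77.6 to 78.9%, so the spread between EV libraries was larger than the counting error. mir-6240, on chromosome 5 (hairpin 114851948 to 114852064, plus strand), followed with 8.28 ± 1.86% of EV counts and 0.105 ± 0.00237% of cell counts (SD, n = 3). Both names stood in a list of precursors taken to overlap rRNA, tRNA or snoRNA. With edgeR's quasi-likelihood F test over all 24 libraries and TMM factors, the log2 difference of EVs from cells was 9.24 ± 0.44 (SE) for mir-6236, 604-fold, with a Benjamini-Hochberg adjusted p of 5.98e-15. For mir-6240 it was 8.65 ± 0.46 (adjusted p = 3.89e-14). All EV libraries lay above all cell libraries for both, as they did in normalised CPM for 13.9% of all tested precursors. Such separation was part of a rule by which precursors were named. In EVs of the other treatments mir-6236 took 74.5 ± 1.17% in controls, 57.2 ± 7.82% after LPS and 73.4 ± 4.88% after TGF-β.

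Because so few counts were left, shares are also given of the counts other than mir-6236 and mir-6240, called here the remaining counts. These numbered 5766, 1825 and 1843 in the EV libraries. In cells the concentration was of another kind: let-7a-1 led each library with 13.1 to 14.2% of the counts, and 5 precursors made up 50% of them. In the EVs 1 precursor made up 50%, and 90% was reached with 21, 4 and 4 precursors, against 31 to 38 in cells. Among the remaining EV counts the leading names were mir-692-3 in library 1 (8.93%), mir-1896 in library 2 (11.8%) and mir-6238 in library 3 (12.1%).

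**Figure D1:**
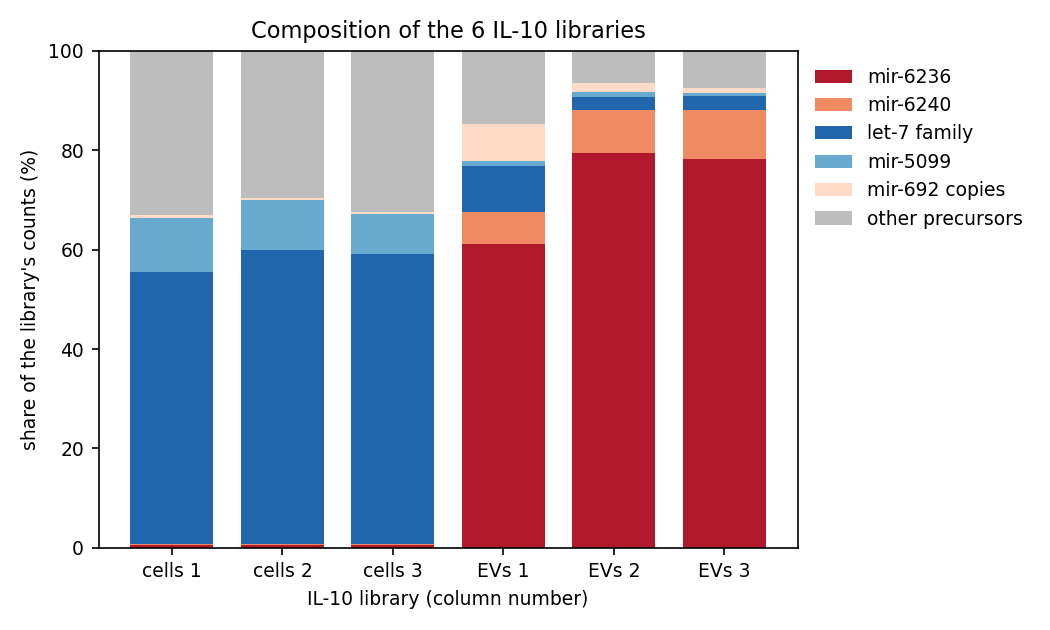
Percent of the counts of each IL-10 library taken by mir-6236, mir-6240, the let-7 family, mir-5099, the mir-692 copies and all other precursors, as stacked bars from 0 to 100%. mir-6236 fills 61.2 to 79.5% of the EV libraries and at most 0.631% of the cell libraries, where the let-7 family fills 54.9 to 59.2%.

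At matched depth the EV libraries showed fewer precursors with at least 5 counts than the cells, and more once the dominant names were set aside. Thinned to 15402 counts, the expected number of precursors with at least 5 counts was 141.5, 133.1 and 141.6 in the cell libraries and 105.7, 60.0 and 64.57 in the EV libraries. Without thinning the means were 276.3 and 79.3. With mir-6236 and mir-6240 left out and all libraries thinned to 1825 counts, 35.7 ± 1.13 precursors were expected in cells and 58.7 ± 3.67 in EVs (SD, n = 3). At 5 counts the libraries of the groups did not overlap in either direction. At 1 count and 15402 counts per library they did, with 240.7, 234.2 and 239.5 in cells and 254.8, 181.0 and 200.1 in EVs. For the 5-count values, an exact permutation test of 3 against 3 libraries cannot give a two-sided p below 0.1, which is the value reached here.

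Of the 1187 precursors, 266 had a count in both compartments, 259 in cells only, 116 in EVs only and 546 in neither. A count in EVs was often a count in 1 library: 209 of the 382 precursors seen in EVs appeared in a single EV library and 93 in all 3. In cells 323 of 525 appeared in all 3.

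After the filter on low counts 280 precursors were tested, and 121 of them (43.2%) differed between IL-10 EVs and IL-10 cells at an adjusted p under 0.05. Of the tested precursors 27.5% (77) were higher in EVs and 15.7% (44) lower. The filter set a CPM cutoff from the median depth of the 24 libraries. Fewer counts therefore met it in an EV library than in a cell library, and precursors could pass on EV counts alone. For example, mir-219a-1, with 2 cell and 3 EV counts, was tested, while mir-132, with 23 and 3, was not. The shares of higher and lower calls among all tested depend on this filter. From the 6 IL-10 libraries alone, with 234 precursors tested, 62 were called (44 higher, 18 lower), and with a filter at a mean of at least 50 counts 26 of 139. The calls also depended on the scaling, and the cause was not tested. With TMM factors the median log2 difference over all tested precursors was -0.80, and it was -0.26 over the 206 with counts in both compartments. It was 0.17 with DESeq2's size factors and -2.81 with library totals, and the calls were then 83 higher with 9 lower, and 53 higher with 166 lower. Under TMM, DESeq2's size factors, library totals and TMM without mir-6236 and mir-6240, 53 precursors were called higher and 9 lower every time. Of these, 40 and 9 were also called without EV library 1. Leaving out EV library 1 gave 51 higher calls in all, among 326 tested. Leaving out cell library 1, 2 or 3 gave 28, 22 or 27 lower ones, but among only 195, 195 and 194 tested. The normalised CPM of the 3 EV libraries lay entirely above those of the 3 cell libraries for 13.9% of all tested precursors and entirely below for 43.9%, against 36 of the 77 higher calls and all 44 lower calls.

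**Figure D2:**
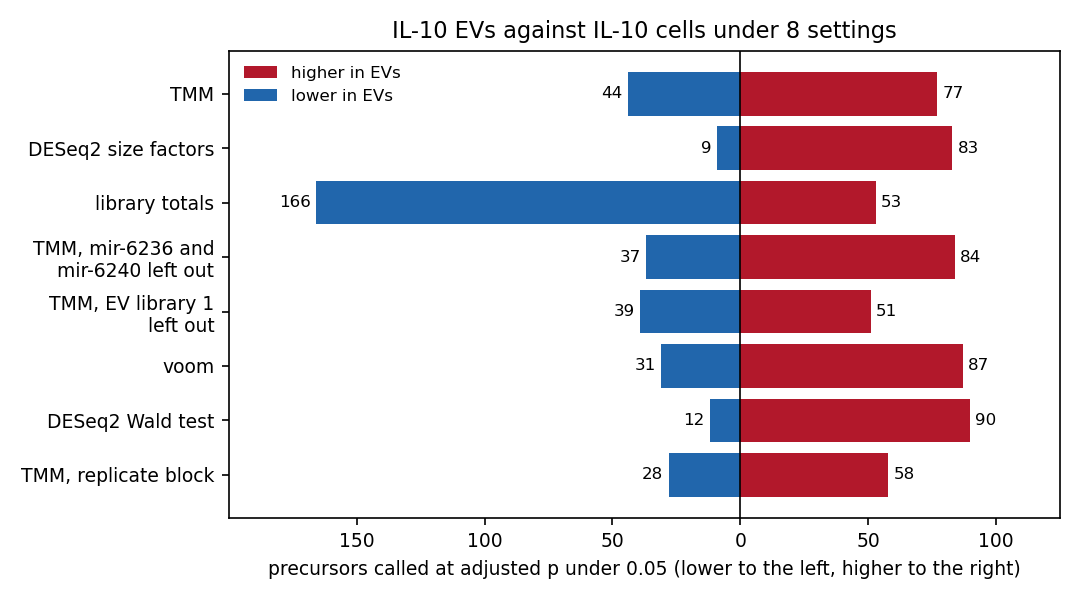
Number of precursors called lower (bars to the left) and higher (bars to the right) in IL-10 EVs than in IL-10 cells at an adjusted p under 0.05, under 8 settings. Higher calls range from 51 to 90, while lower calls range from 9 with DESeq2's size factors to 166 with library totals.

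**Figure D3:**
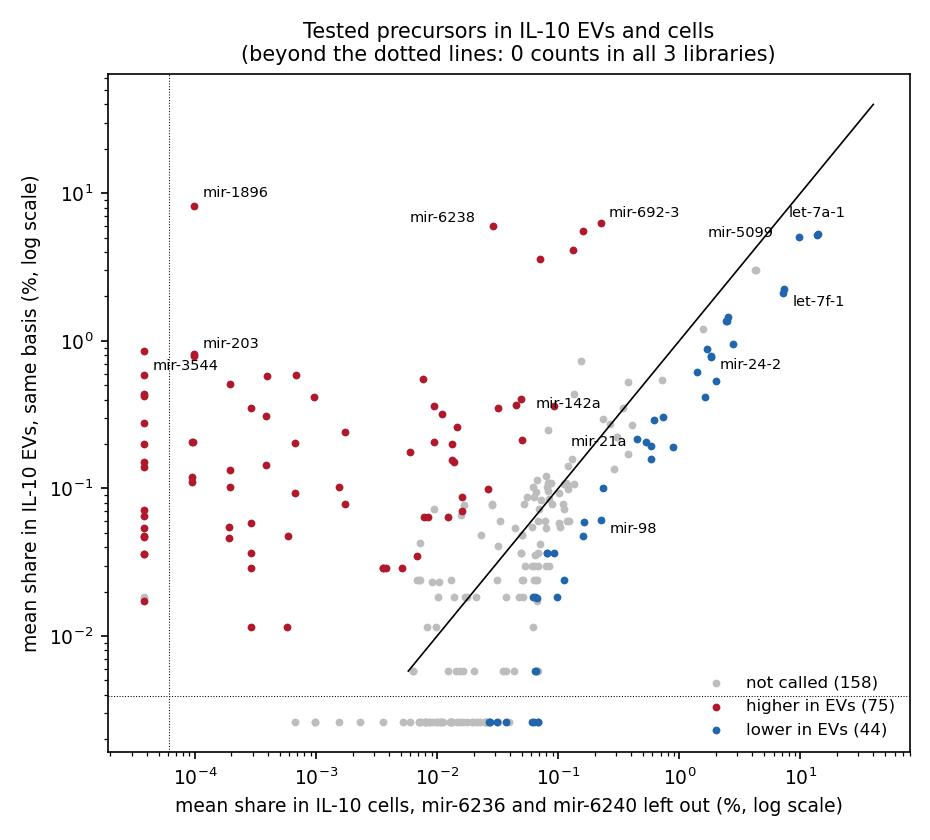
Share of the remaining counts (log scale, percent, mean of 3 libraries) in IL-10 EVs against IL-10 cells for tested precursors other than mir-6236 and mir-6240, coloured by the edgeR call. The diagonal marks equal shares, and points beyond the dotted lines had no count in that compartment. The 75 precursors called higher lie above the diagonal, many at the left edge where cells had 0 or few counts, and the 44 called lower lie below it.

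Higher calls were large and rested on few cell counts. Their log2 differences ran from 2.04 to 15.0, with a median of 7.13, or 6.69 with precursors at 0 in cells put at the bound that 3 counts give. Of the 77, 16 had no count in any cell library, 28 had under 3 cell counts in all, 26 had under 10 EV counts, and 22 had counts in 1 EV library only. Those seen in a single EV library are calls on 1 library. The precursors described next had counts in all 3 EV libraries.

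mir-1896, in an exon of the long noncoding RNA 4930470G03Rik on chromosome 13 (21445160 to 21445240), was the most abundant name that cells nearly lacked. It had 0, 1 and 0 counts in cells and 132, 215 and 196 in EVs. Its share was 11600 times that in cells, with a 95% counting interval of 2080 to 460000, and the adjusted p was 2.39e-12. Control, LPS and TGF-β EVs held it as well, at 1.28%, 0.418% and 1.53% of counts beside 1.13% after IL-10.

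mir-5108, in an intron of H2afy2 on the opposite strand, had 0, 1 and 0 counts in cells and 16, 26 and 12 in EVs, a ratio of shares of 1150 (199 to 46500; adjusted p = 2.39e-12). mir-203, known for its role in skin, had 0, 1 and 0 counts in cells and 49, 20 and 9 in EVs (ratio 1670, 291 to 66700; adjusted p = 2.8e-09). mir-1a-1, a muscle microRNA, had 0, 1 and 2 counts and 13, 10 and 5 (ratio 200, 61.7 to 1030; adjusted p = 6.59e-11). EV counts lay above cell counts in every library although the EV libraries were far shallower. For mir-5108 and mir-1a-1 separation in normalised CPM was part of the rule by which they were named. It held for 13.9% of all tested precursors.

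mir-7070 had 3, 3 and 1 counts in cells and 67, 5 and 6 in EVs, and mir-7688 1, 3 and 0 and 37, 7 and 13. Their log2 differences were 9.56 ± 0.76 and 9.98 ± 0.84, with adjusted p of 1.07e-10 and 3.02e-10. mir-1931, in an intron of Cdk17, had 4, 1 and 5 counts in cells and 21, 13 and 3 in EVs (log2 difference 8.22 ± 0.73; adjusted p = 8.48e-10). EV library 1 held most of the EV counts of mir-7070 and mir-7688.

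mir-1983, one of the names listed for overlap with other structured RNAs, had 27, 22 and 30 counts in cells. In EVs it had 83, 3 and 1, so library 1 held nearly all of them, and the log2 difference was 6.34 ± 0.59 (adjusted p = 1.6e-09). mir-6238 had 105, 86 and 110 counts in cells and 232, 34 and 223 in EVs (log2 difference 7.36 ± 0.80; adjusted p = 2.84e-08). Here EV library 2 was the low one, and all 3 EV shares lay above those of cells.

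A total of 8 precursors had counts in every EV library and none in any cell library. mir-3544, which lies antisense to mir-337 in the Dlk1-Dio3 region of chromosome 12 (109585813 to 109585873, minus strand), had 11, 11 and 18 EV counts, a share at least 285-fold higher than in cells with a floor of 3 counts over the cell group. Reads from a gene and its antisense partner cannot be told apart without strand. mir-5119 had 32, 2 and 35 (at least 492-fold), mir-6990 26, 5 and 2 (at least 235-fold) and mir-6345 10, 4 and 16 (at least 214-fold). The other four were mir-8117, mir-6387, mir-6949 and mir-683-1, with 1 to 4 counts in each EV library, and mir-683-1 did not pass the filter for testing. Of the 116 precursors seen in EVs only, 100 were in a single EV library.

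A mature strand was also found in another gene for 10.1% of higher, 9.68% of lower and 10.3% of all tested precursors with a sequence. Searching the mature strands in the GENCODE transcripts found an exact match in a protein-coding transcript of another locus for 6 of the 69 higher precursors with a sequence, for 0 of the 31 lower ones and for 7 of 204 tested ones. These 6 were the 3 mir-692 copies (in Ftl1, ferritin light chain), mir-682 (in Rpl37a, a ribosomal protein), mir-690 (in Fundc2) and mir-703 (in Eef1a1, a translation elongation factor). A match is a description of the letters and does not say where a read came from.

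mir-692-3 had 921, 748 and 649 counts in cells and 515, 122 and 58 in EVs, and its share of the remaining counts was 0.224 ± 0.0383% in cells and 6.26 ± 2.92% in EVs (SD, n = 3). Its log2 difference was 4.47 ± 0.56 (adjusted p = 3.2e-07), and those of mir-692-2 and mir-692-1 were 4.76 ± 0.57 and 4.63 ± 0.55. The 3 copies carry the same mature strand and are not independent. Together they held 23.0%, 16.4% and 8.14% of the remaining EV counts, and at most 0.617% in cells.

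mir-682 had 307, 232 and 199 counts in cells and 266, 64 and 47 in EVs (log2 difference 5.31 ± 0.52; adjusted p = 4.62e-09). mir-690 had 38, 36 and 40 and 24, 6 and 4 (4.66 ± 0.51; adjusted p = 2.84e-08). mir-703 had 55, 44 and 38 and 8, 5 and 1 (3.17 ± 0.67; adjusted p = 0.000397), and was not called without EV library 1.

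Lower calls were smaller in size, and 21 of the 44 had under 10 EV counts over the 3 libraries. Their log2 differences had a median of -2.21, or -1.76 with the 8 precursors at 0 in EVs put at their bound. Of the 44, 10 belonged to the let-7 family, 6 to the miR-23/27/24 clusters and 10 to the Sfmbt2 intronic cluster. The 9 lower under all of the scalings above were let-7a-1, let-7a-2, let-7e, let-7f-1, let-7f-2, mir-98, mir-183, mir-677 and mir-5121.

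The let-7 family, whose 5p strands shown above carry the seed GAGGUAG and which restrains growth and stem-cell programmes in many tissues, was the largest group in cells. Its 14 listed precursors, mir-98 included, took 54.9%, 59.2% and 58.3% of cell counts and 9.33%, 2.53% and 2.81% of EV counts. As shares of the remaining counts this was 57.9 ± 2.31% in cells and 28.7%, 21.3% and 23.8% in the EV libraries (24.6 ± 3.75%, SD, n = 3). The groups did not overlap on either denominator. Among the 14 tested members 10 were lower and 1 higher, beside 15.7% lower and 27.5% higher among all tested, and the median log2 difference was -1.71, beside -0.80 over all tested. With DESeq2's size factors 6 were lower and 1 higher (median -0.68), and with library totals 13 were lower and none higher (median -3.72). Of all 280 tested, 9 were lower and 83 higher with those size factors, and 166 lower and 53 higher with library totals.

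let-7f-2, in an intron of Huwe1 on the X chromosome (151912346 to 151912428), had 24224, 24576 and 25304 counts in cells and 119, 38 and 41 in EVs. It was the member with the smallest p, with a log2 difference of -2.13 ± 0.28, 4.36-fold lower (adjusted p = 7.85e-07). let-7f-1, whose mature strand is the same, gave -2.08 ± 0.29. Of the remaining counts let-7f-2 took 2.12 ± 0.0880% in EVs and 7.16 ± 0.206% in cells (SD, n = 3).

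let-7a-1 had 45945, 48319 and 48963 counts in cells and 346, 90 and 91 in EVs (log2 difference -1.74 ± 0.28; adjusted p = 1.31e-05). let-7a-2 carries the same let-7a-5p strand and gave -1.75 ± 0.27. let-7e, in an intron of Spaca6, had 9176, 9885 and 9843 counts in cells and 76, 15 and 13 in EVs (-1.83 ± 0.35; adjusted p = 0.000123). mir-98 had 781, 768 and 794 and 1, 3 and 0 (-2.70 ± 0.54; adjusted p = 0.000224). No EV library reached a cell library for any of these, but such separation was part of the rule by which they were named. In normalised CPM it held for 43.9% of all tested precursors.

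let-7c-1, let-7c-2 and let-7b were not called with TMM factors, and no difference between members was tested. let-7c-1 had 13936, 14849 and 14954 counts in cells and 246, 35 and 53 in EVs, and let-7b had 5093, 5629 and 5430 and 69, 17 and 27. Their log2 differences were -0.77 ± 0.38 (adjusted p = 0.104) and -0.73 ± 0.41 (adjusted p = 0.14), and with DESeq2's size factors let-7c-1 turned to 0.24. Without EV library 1, which held most of their EV counts, all of these were called lower, at -1.81 for let-7c-1 (adjusted p = 0.000263), -1.82 for let-7c-2 and -1.38 for let-7b (adjusted p = 0.0184). As a description of the strands only, set against let-7a-5p, with positions counted from 1 at the 5′ end, let-7c-5p carries A19G and let-7b-5p A17G and A19G. Of the 6 other 5p strands of the family compared with let-7a-5p none has A19G: let-7f-5p carries G12A and let-7e-5p U9G, for example. Strands this alike can share reads, depending on how mismatches were treated in counting, which is not given in the sources used here.

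let-7g, let-7d, let-7i and let-7j were lower as well, at -2.08, -1.17, -1.34 and -1.68. let-7k was the exception, with 51, 47 and 40 counts in cells and 0, 0 and 11 in EVs. Its log2 difference of 2.97 ± 0.92 (adjusted p = 0.0102) rested on EV library 3.

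**Figure D4:**
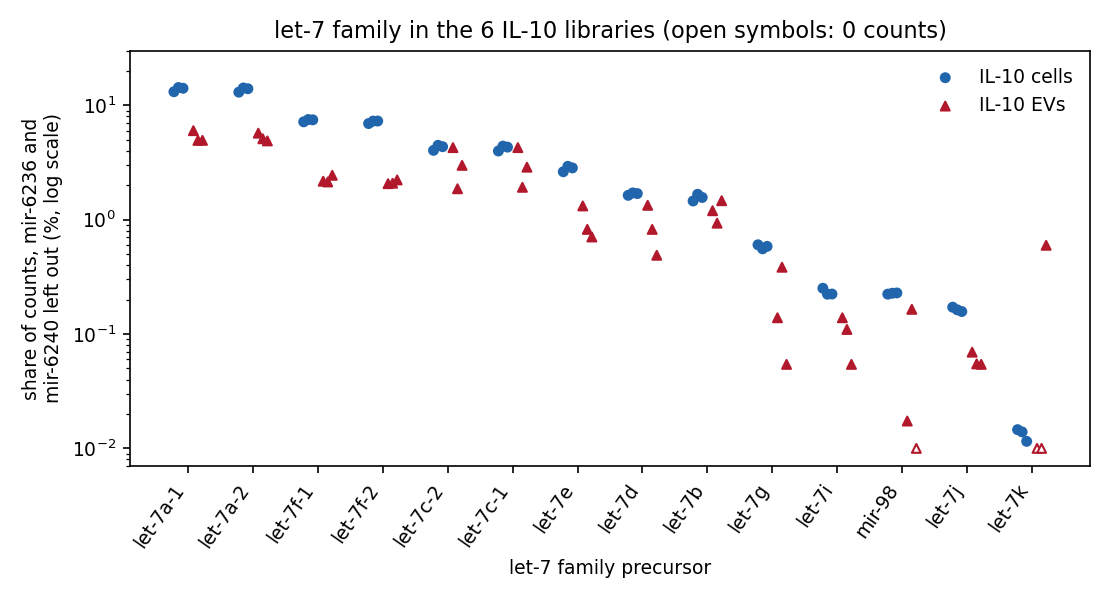
Share of the remaining counts (percent, log scale) of each let-7 family precursor in the 3 IL-10 cell libraries and the 3 IL-10 EV libraries, 1 point per library, with open symbols for a count of 0. The let-7a, let-7e and let-7f precursors lie lower in every EV library than in every cell library, while the let-7c and let-7b points overlap between the groups and let-7k appears in 1 EV library.

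mir-677, in an intron of Atp5b and also annotated as a snoRNA, had 4764, 4937 and 7060 counts in cells and 18, 11 and 6 in EVs (log2 difference -2.42 ± 0.37; adjusted p = 6.65e-06). mir-5121, inside the snoRNA Snord33 of the ribosomal protein gene Rpl13a, had 7489, 6963 and 6265 and 30, 14 and 6 (-2.28 ± 0.35; adjusted p = 8.53e-06). mir-183, from a cluster known in sensory organs, had 3013, 2854 and 3330 and 17, 5 and 0 (-2.36 ± 0.45; adjusted p = 0.000117). Of the 5 names found in the tables and tested from the list of 11 for rRNA, tRNA or snoRNA overlap, 4 were higher (27.5% among all tested; 3 without EV library 1) and none lower, and mir-677 and mir-5121 were not in that list. mir-664, in that list and inside Snora36b, had 173, 151 and 136 counts in cells and 29, 4 and 7 in EVs (2.84 ± 0.66; adjusted p = 0.00094). mir-1839, which is annotated as a small Cajal body RNA, was not called (-1.27 ± 0.77; adjusted p = 0.175).

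mir-5099, the most abundant single name in cells after let-7a, had 38187, 34029 and 28247 counts in cells and 174, 142 and 79 in EVs. It was lower with TMM factors (-1.44 ± 0.30; adjusted p = 0.000303) and not called with DESeq2's size factors (-0.24). mir-25, in an exon of Mcm7, had 5019, 4683 and 4753 and 15, 20 and 9 (-1.77 ± 0.33; adjusted p = 9.84e-05), and was likewise not called with those factors.

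The miR-23/27/24 clusters, known in myeloid and lymphoid differentiation, took 8.82 ± 0.225% of the remaining counts in cells and 4.43 ± 1.11% in EVs (SD, n = 3). All 6 members were lower with TMM factors and with library totals, and none was called with DESeq2's size factors (median -1.63, -3.71 and -0.55). mir-24-1 and mir-24-2 carry the same miR-24-3p strand, so the 6 members are not independent. Among all 280 tested, 44 were lower with TMM factors, 166 with library totals and 9 with DESeq2's size factors. mir-23a had 8853, 8190 and 8915 counts in cells and 98, 32 and 17 in EVs (-1.13 ± 0.28; adjusted p = 0.0017), and mir-24-2 had 6632, 6071 and 6188 and 38, 17 and 14 (-1.63 ± 0.36; adjusted p = 0.000613). mir-27a and mir-27b had 2 and 1 EV counts over the 3 libraries.

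The Sfmbt2 intronic cluster, a rodent array of many near-identical copies, had 59 tested members of 82 in the tables. With TMM factors 10 were lower (15.7% among all tested, a share near that of the cluster) and none higher. With the size factors of DESeq2 none was lower and 2 were higher. With library totals 54 were lower, beside 166 of all 280 tested. Each of the 10 had at most 1 EV count over the 3 libraries, beside 247, 181 and 251 cell counts for mir-669a-9, for example. The most abundant copy, mir-669c, had 1248, 1333 and 1286 counts in cells and 82, 0 and 3 in EVs and was not called (adjusted p = 0.4). Reads can be split among such copies by the counting.

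The listed precursors induced by Toll-like receptor 4 and NF-kB took 0.330%, 1.81% and 2.17% of the remaining EV counts and 0.823 ± 0.1% of those of cells (SD, n = 3), so the groups overlapped. mir-21a, induced in many activated myeloid cells and located in an exon of Vmp1, had 1927, 1577 and 1949 counts in cells and 17, 1 and 5 in EVs (log2 difference -1.48 ± 0.44; adjusted p = 0.00775, and -0.49 and not called with DESeq2's size factors). mir-146a, which restrains Toll-like receptor signalling by targeting IRAK1 and TRAF6, had 540, 416 and 633 counts in cells and 1, 24 and 16 in EVs (1.54 ± 0.79; adjusted p = 0.113). EV library 1 was the low one, and without it mir-146a was called higher at 1.91 (adjusted p = 0.0244), as it was with DESeq2's size factors at 2.75, while with library totals it was at -0.81. mir-146b, which has the same seed, had 453, 402 and 554 counts and 0, 8 and 16 (0.91 ± 0.84; adjusted p = 0.362).

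mir-155, a microRNA that IL-10 is known to repress, had 10, 9 and 18 counts in cells and none in EVs, and mir-132 5, 6 and 12 and 0, 0 and 3. Neither was called, and mir-132 did not pass the filter. mir-187, reported as induced by IL-10 in macrophages, had no count in any of the 6 libraries. Of 7 listed targets of Toll-like receptor 4 and NF-kB induction, 4 were tested, with 1 lower and none higher, beside 15.7% lower and 27.5% higher among all tested. Scaled by DESeq2's factors, 1 passed as higher and none as lower, and without EV library 1, 2 of 5 were higher and 1 lower. Of the 6 tested members of the IL-10 list 3 were lower (mir-21a, mir-27a and mir-98) and none higher, and with DESeq2's size factors 1 was lower.

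Precursors that mark myeloid cells were in the cells as the label says, with mir-142a, mir-223, mir-342 and mir-511 all counted. Only mir-142a was counted in EVs. It had 1395, 1204 and 957 counts in cells and 10, 8 and 8 in EVs, which was 0.344 ± 0.0626% and 0.349 ± 0.152% of the remaining counts (-0.54 ± 0.40; adjusted p = 0.254; 0.52 with DESeq2's size factors). mir-223 had 89, 63 and 110 counts in cells, mir-342 62, 49 and 58 and mir-511 47, 43 and 44, and none had a count in EVs. At their cell shares 12.2, 7.9 and 6.26 counts would have been expected over the EV group, and at their cell shares of the remaining counts 2.39, 1.54 and 1.22, under the floor of 3 counts.

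Most absences could not be judged at the depth of the EV libraries. Of the 259 precursors seen in cells and not in EVs, 49 would have given 3 or more EV counts at their cell share, and 8 at their cell share of the remaining counts. They were mir-669a-8, mir-151, mir-669a-4, mir-467a-7, mir-5136, mir-17, mir-15b and mir-106b. On the remaining counts mir-669a-8 was at least 2.15-fold lower in EVs, mir-151 at least 2.13-fold and mir-17 at least 1.19-fold. All 6 members of the miR-26, miR-103 and miR-107 families were at 0 in EVs, with 399, 303 and 343 counts in all in the cell libraries, and none was called.

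The counts for further families are to be read beside the 27.5% higher and 15.7% lower among all tested. Of 14 tested precursors in a list of often reported EV cargo 1 was higher (mir-125b-1) and 2 lower (mir-21a and mir-24-2), and scaled by DESeq2's factors 2 passed as higher and none as lower. The miR-17-92 cluster and paralogs had 1 higher and 1 lower of 11, the miR-15/16 family 2 lower of 6, the miR-29 family 1 lower of 4 and the miR-30 family 1 higher of 5. The higher calls of the miR-17-92 and miR-30 lists were lost without EV library 1, and both lower calls of the miR-15/16 family were lost there and with DESeq2's size factors. Of the 4 tested precursors processed without Drosha or as mirtrons, only mir-877 passed, higher with 171, 169 and 168 counts in cells and 45, 7 and 1 in EVs (3.04 ± 0.61; adjusted p = 0.00023), and this call was lost without EV library 1 (1.19; adjusted p = 0.415). mir-221, mir-222 and the miR-181 family were not called.

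All 3 tested precursors with the seed CCCUGAG were higher, beside 27.5% among all tested: mir-125b-1, mir-125b-2 and mir-351. This seed was picked from many shared by more than 1 tested precursor, and the mir-125b copies carry the same 5p strand. The mature strands of the 3 are related as follows.
miR-125b-5p: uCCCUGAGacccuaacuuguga
miR-351-5p: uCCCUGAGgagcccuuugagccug
mir-351 had 170, 157 and 191 counts in cells and 21, 5 and 0 in EVs (2.08 ± 0.51; adjusted p = 0.00167). The 2 mir-125b copies had 5 EV counts each, all in EV library 1, and without it turned lower (-5.60 and -5.53). The calls for mir-125b therefore rest on that library, which also held most of the EV counts of mir-351.

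Markers of other cell types were given for what vesicle preparations can hold besides microglial RNA. Their calls are to be read beside the 27.5% higher and 15.7% lower among all tested. Muscle markers summed to 0, 2 and 4 counts in cells and 23, 10 and 5 in EVs. Of the 9 listed names, 2 had an EV count, and both were tested and higher (mir-1a-1, mir-1a-2). The EV counts of mir-1a-2 were all in library 1, and without that library its sign reversed and its call was lost. Epithelium markers summed to 10, 13 and 22 and to 53, 20 and 9, the EV counts being mostly mir-203. Stroma markers summed to 301, 251 and 269 counts in cells and 0, 0 and 1 in EVs, with none of 3 tested called. Markers of glia other than microglia summed to 8, 6 and 9 and to 0, 1 and 3, with the 1 tested member called higher (mir-219a-1, with 2 counts in cells and 3 in EVs; ratio of shares 32.1, 3.68 to 384). The endothelium list, with 28, 40 and 38 counts in cells and 4, 0 and 0 in EVs, had 1 tested member (mir-126a), which was not called. Neuron markers summed to 60, 33 and 66 in cells and 5, 0 and 5 in EVs, with none of 3 tested called. The red cell and serum list had only mir-144 in EVs, with 25 counts in library 1. The part of such RNA in the EV differences was not tested.

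Sequence features of the called precursors are given as a description, with no test. The median GC content of the mature strands was 52.5% for higher precursors (69 with a sequence), 45.5% for lower ones (31) and 50.0% for all 204 tested ones. The letters GGAG, known from an export motif bound by hnRNPA2B1, were found in 20.3% of higher, 9.68% of lower and 17.6% of all, and CCCU in 21.7%, 3.23% and 16.2%, on the mature strand as written. UGAG, which overlaps the seed of let-7 strands, was in 26.1%, 48.4% and 25.0%. Names numbered above 1000, many of them added from deep sequencing, made up 58.4% of higher, 13.6% of lower and 25.1% of tested precursors. Among all 1187 precursors, before the filter on counts, such names made up 55.5%. Of the 1015 precursors with a sequence, GGAG was in 22.4%, CCCU in 18.1% and UGAG in 21.7%. The median GC content of their mature strands was 52.2%.

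The IL-10 difference between EVs and cells was next set beside those of the other treatments, which used their own libraries. In controls 26.1% of the 280 tested precursors were higher in EVs and 12.5% lower, after LPS 21.1% and 9.64%, and after TGF-β 25.4% and 17.9%. Of the 77 precursors higher after IL-10, 61 were also higher in controls, 39 after LPS and 55 after TGF-β, 33 in all of them. Of the 44 lower ones 23, 11 and 29 were also lower, and 9 in all. Across the 280 precursors the log2 differences after IL-10 correlated with those of controls at r = 0.767, of LPS at 0.687 and of TGF-β at 0.696. The points share low counts and normalisation factors and are not independent.

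Whether the EV-cell difference after IL-10 was itself different was tested as an interaction. Against controls edgeR called 0.0% of 280 precursors (0 higher and 0 lower), with 36 at an unadjusted p under 0.05. DESeq2's Wald test called 4 and limma's voom 0. The smallest adjusted p was 0.0675, for mir-342, which had no EV counts after IL-10. mir-682 and mir-29a followed, at 2.41 ± 0.65 and -3.61 ± 1.01 on the log2 scale (adjusted p = 0.13 for both). Against TGF-β edgeR again called 0.0% (0 precursors), with 24 at an unadjusted p under 0.05, 4 by DESeq2's Wald test and 0 by voom. mir-27b and mir-27a had the smallest p there, with -4.38 ± 1.06 and -3.85 ± 0.96 (adjusted p = 0.0653 for both).

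Against LPS 23 precursors (8.21%) were called, 4.64% of those tested higher relative to cells after IL-10 than after LPS (13) and 3.57% lower (10). This split also moved with the scaling: it was 28 and 2 with DESeq2's size factors and 8 and 47 with library totals. Without LPS cell library 1 or 2, LPS EV library 2 or 3, or IL-10 cell library 2 the calls numbered 12, 13, 14, 15 and 15. The largest share belonged to mir-6236, whose EV-cell difference was 9.24 after IL-10 and 6.60 after LPS (difference 2.64 ± 0.45; adjusted p = 0.000336). It took 0.603 ± 0.0287% of IL-10 cell counts and 1.46 ± 0.192% of LPS cell counts, and 73.0 ± 10.2% and 57.2 ± 7.82% of the EV counts (SD, n = 3). mir-6240 differed in the same way, at 8.65 and 4.32 (difference 4.33 ± 0.49; adjusted p = 1.02e-06).

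mir-682 (difference 3.44 ± 0.65; adjusted p = 0.0011), mir-1931 (5.58 ± 1.07; adjusted p = 0.0011) and mir-1983 (3.89 ± 0.79; adjusted p = 0.00192) were also further above cells after IL-10. The EV counts of mir-1983 after IL-10 lay in library 1, as given above. mir-146a took 0.152 ± 0.0294% of IL-10 cells and 4.15 ± 0.309% of LPS cells, and 0.0880 ± 0.0762% and 0.249 ± 0.165% of the EVs. Its EV-cell difference was 1.54 after IL-10 and -2.77 after LPS (difference 4.31 ± 1.06; adjusted p = 0.0119). So the large gap between cells of the treatments was not matched by a gap of that size between their EVs.

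In the other direction mir-5126 took 0.583 ± 0.122% of IL-10 cells and 0.0368 ± 0.0434% of IL-10 EVs, but 0.311 ± 0.0429% of LPS cells and 1.02 ± 0.245% of LPS EVs (difference -4.95 ± 0.75; adjusted p = 8.05e-05). mir-2137 took 0.716 ± 0.173% and 0.0890 ± 0.0304% after IL-10, and 1.73 ± 0.420% and 2.30 ± 0.733% after LPS (difference -2.55 ± 0.59; adjusted p = 0.0068). Neither name's IL-10 and LPS EV libraries overlapped in share. Both names were chosen for a small interaction p against LPS, so that gap adds no separate support. let-7f-2 was 2.13 below cells after IL-10 and 0.68 below after LPS on the log2 scale (difference -1.45 ± 0.38; adjusted p = 0.0209). mir-29a and mir-532, which had 2 EV counts each after IL-10, were lower relative to cells than after LPS (-3.50 ± 0.94 and -2.84 ± 0.79).

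**Figure D5:**
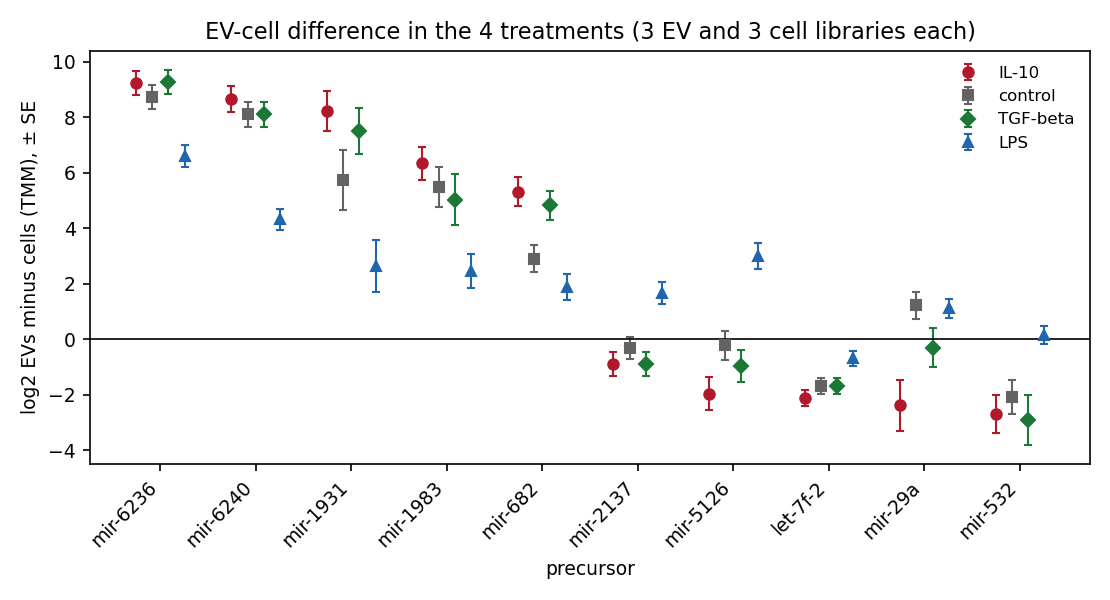
Log2 difference of EVs from cells (TMM scale, edgeR estimate with SE bars) for 10 precursors in IL-10, control, TGF-β and LPS cultures, 3 EV and 3 cell libraries each. The precursors were chosen for having the smallest interaction p against LPS in each direction. The gap between their LPS and IL-10 points therefore follows from that choice, and 8.21% of all 280 tested were called against LPS. The LPS and IL-10 values were 4.32 and 8.65 for mir-6240, and 3.00 and -1.96 for mir-5126.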

How the data were processed

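RNA was isolated by miRNeasy, from 20 µL in the case of EVs, and SMARTer smRNA-seq libraries with 18 PCR cycles were read on a HiSeq X, per the labels. The authors deposited whole-number counts per precursor, not normalised and not separated by arm. DESeq2 is named in the submitters' processing notes, with aligner, annotation, build and filters not given in the sources used here. Among the 8 deposited tables, a pair (2) duplicated others and the rest entered the fit. From there, edgeR 4.0.16 (R 4.3.3) was fitted over the 24 libraries (16 residual degrees of freedom) with TMM factors, filterByExpr (minimum count 10) and the quasi-likelihood F test. Adjusted p-values are Benjamini-Hochberg over the 280 precursors tested, and values under 0.05 were called. SE come from the F statistic. Thinning used the hypergeometric expectation, and intervals are 95% Clopper-Pearson. The fit was tested on simulated data. Alternatives were DESeq2 1.42.0, limma 3.58.1 and the settings of the closing section. Named precursors were the 10 called, non-overlapping ones of smallest p per direction, the 10 most abundant per compartment, up to 4 per list, 7 preset names, and the 5 smallest p per direction in interactions. Members, lists and rules were chosen with earlier results of these data known.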

Additional observations from a re-analysis of the deposited data

Results flagged for a closer look

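The difference between EVs and cells after IL-10 was itself different from that after LPS for 17 named precursors, by edgeR's interaction test over the 24 libraries. Among all 280 tested precursors 23 (8.21%) were called. The 5 of smallest p in each direction were named for that p, so much of the count of 17 follows from the choice. Values are the log2 EV-cell difference after IL-10 minus that after LPS. It was positive for mir-6240 (4.33), mir-6236 (2.64), mir-682 (3.44), mir-1931 (5.58), mir-1983 (3.89), mir-5099 (1.83), mir-146a (4.31) and for the mir-692 copies, which carry 1 mature strand: mir-692-1 (2.49), mir-692-2 (2.31) and mir-692-3 (2.26). It was negative for mir-5126 (-4.95), mir-2137 (-2.55), let-7f-2 (-1.45), let-7f-1 (-1.38), mir-29a (-3.50), mir-532 (-2.84) and mir-664 (-2.90). mir-29a and mir-532 had 2 EV counts each after IL-10. Over all tested, 13 were higher and 10 lower, but 28 and 2 with DESeq2's size factors. Under TMM without mir-6236 and mir-6240 they were 22 and 4. Adjusted p ran from 1.02e-06 for mir-6240 to 0.0449 for mir-692-3. mir-5099 was lower in EVs in both treatments, by -1.44 after IL-10 and -3.26 after LPS, and mir-664 was higher in both, by 2.84 and 5.74. mir-146a and mir-5126 had opposite signs, with 1.54 and -1.96 after IL-10 and -2.77 and 3.00 after LPS.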

How the results depend on the processing

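EV depth limits what can be seen: a count of 0 allows up to 0.0195% of an EV library. EVs against cells gave 121 calls, with 219 by library totals, 207 with no filter, 26 at a mean of at least 50 counts and 62 from the 6 libraries alone. Higher calls (77) were 149, 16 and 44 with no filter, the mean filter and the 6 libraries. Lower calls (44) were 9 with DESeq2's size factors, 166 with library totals, 10 with the mean filter, 12 by the Wald test, 18 from the 6 libraries and 8 with those factors without mir-6236 and mir-6240, a setting chosen after seeing the data. Leaving out 1 library gave 79 to 148 calls, 51 to 82 higher and 22 to 66 lower. Fewer precursors (193 to 195) pass the filter when a cell library is left out. Same-numbered IL-10 libraries deviated together by r of -0.0987, 0.0209 and -0.112. With EV libraries this shallow and 3 per group, such values cannot decide whether same-numbered libraries came from the same culture. With a replicate block the calls were 58 higher and 28 lower (86), 0 against controls and TGF-β, and 12 higher and 3 lower against LPS (15). Against controls (0 calls) there were 2 with DESeq2's size factors with and without mir-6236 and mir-6240 (1 each way), 4 with no filter and by the Wald test (2 each way), and 0 to 1 leaving out a library. Against LPS (23) there were 55 with library totals (8 higher, 47 lower), 36 with no filter (29 higher), 49 by the Wald test (41 higher), 28 with 2 (higher with lower) under DESeq2's size factors with and without mir-6236 and mir-6240, 22 and 4 without these under TMM, 6 lower with the mean filter, 3 lower by voom, and 12 to 26 leaving out a library (8 to 19 higher, 2 to 15 lower). Against TGF-β (0) there were 2 lower with the mean filter and 4 lower by the Wald test. The EV share of let-7 was 24.6% of the remaining counts. Expected precursors in cells were 238.1 at 1 count, 276.3 unthinned and 35.7 without mir-6236 and mir-6240, and in EVs 211.9 at 1 count and 46.7 at 10. Signs reversed for mir-23a (0.05 with DESeq2's size factors without mir-6236 and mir-6240), for mir-155 (1.96 by voom) and, with library totals, for mir-19b-2 (-1.71), mir-19b-1 (-1.88), mir-29c (-1.98), mir-30e (-1.42) and mir-222 (-1.75). Without EV replicate 1 they reversed for mir-30d (-0.15 to 2.81 over all leave-outs), mir-125b-1 (-5.60 to 3.75), mir-125b-2 (-5.53 to 3.75), mir-669c (-3.18 to 1.09), mir-1a-2 (-2.22 to 8.43), mir-700 (-8.40 to 2.78), mir-1306 (-6.76 to 3.38) and mir-330 (-7.70 to 2.89). Of the named precursors 16 of 29 higher and 9 of 25 lower kept their call under every setting that tested them, the one chosen after seeing the data aside. Where a cause is not given, it was not tested.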

Other observations

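The Dlk1-Dio3 cluster, an imprinted array of microRNAs active in neurons and embryonic tissue, was almost silent in IL-10 cells, with 1 count in each library over its 43 names. IL-10 EV libraries held 5, 3 and 7 counts, spread over 9 of the names, and none passed the filter for testing. In share this was 0.000288% of cell counts and 0.0309 ± 0.0129% of EV counts (SD, n = 3). Control EVs held 0.0975 ± 0.0977%, LPS EVs 0.0224 ± 0.00943% and TGF-β EVs 0.0330 ± 0.0182%. mir-3544, antisense to a member of the same region, had 11, 11 and 18 EV counts and is not part of that sum.

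A total of 22 higher calls rested on a single EV library. mir-1a-2 had 10 EV counts in library 1 and 0, 1 and 2 counts in cells (ratio of shares 71.3, counting interval 18.4 to 403). mir-125a had 8 EV counts in library 3 and none elsewhere in the 6 libraries, and it did not pass the filter. These values describe those libraries.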
